A study of Drosophila melanogaster with 12 samples.

Results

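The 48 genes described here are the Drosophila melanogaster neuropeptides and their processing machinery: 43 peptide precursors, the 4 processing enzymes amon, svr, Phm and Pal2, and the transcription factor gene dimm. They were taken by gene symbol, with no receptor included. Of the 48, 46 were found in at least 1 of the 2 count tables, which together hold 14251 genes, and 44 were in both. Eh was in the JmjC table and SIFa in the L854F table, while Ilp5 and Nplp3 were not analysed here. The transcripts were measured by sequencing poly(A) RNA of the ventral nerve cord, the part of the larval central nervous system behind the brain, from wandering third-instar larvae reared at 25C.

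There were 3 genotypes with 4 samples each. L854F larvae were homozygous for kdm5[L854F], a missense allele. JmjC larvae were homozygous for kdm5[JmjC*], which the labels call demethylase inactive. WT larvae carried the kdm5 140 mutation together with a rescuing gKDM5 transgene, so they are a rescued mutant and not an unmodified strain. The labels call WT wild type and give no sex, no number of larvae per sample and no batch, and nothing in them says whether the 4 samples of a group came from separate cultures. The p-values therefore measure the spread between these samples.

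Neuropeptides are made as longer precursors that are sorted into dense-core vesicles, cut and trimmed there, and released as hormones or local modulators. The convertase encoded by amon cuts at pairs of basic residues, the carboxypeptidase encoded by svr removes the exposed basic residues, and Phm and Pal2 carry out the successive steps of C-terminal amidation that most fly neuropeptides need. The bHLH factor encoded by dimm promotes this secretory apparatus in peptidergic neurons. In the larval cord, peptides come from small, stereotyped sets of neurons, such as the abdominal leucokinin and CAPA neurons, the thoracic FMRFamide neurons and the segmental CCAP neurons. KDM5 is a histone demethylase that acts on methylated lysine 4 of histone H3 and also regulates transcription through other domains.

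Library totals ran from 15103631 to 16850705 expected counts. The kdm5 transcript itself, carried in the files under the symbol lid, averaged 774 CPM (counts scaled to library size with TMM factors) in L854F, 772 CPM in JmjC and 715 CPM in WT, and edgeR's quasi-likelihood test called it in neither mutant (adjusted p = 0.309 in L854F and 0.201 in JmjC). Neuronal marker genes were present at summed levels of 4901 to 5752 CPM in L854F, 5034 to 6251 CPM in JmjC and 4957 to 5746 CPM in WT. Markers of tissues that a dissection can carry were low for midgut and muscle. The 7 midgut markers found summed to 1.45 to 2.19 CPM in L854F and 2.56 to 2.96 CPM in WT. In JmjC they summed to 53.3 CPM in replicate 3 and to between 0.744 and 0.995 CPM in the other samples. The 8 muscle markers summed to 5.38 to 26.4 CPM in L854F and 6.22 to 16.9 CPM in JmjC, against 17.3 to 61.4 CPM in WT. The muscle myosin light chain gene Mlc2 fell in L854F (-2.59 on the log2 scale, adjusted p = 0.00174) and in JmjC (-2.23, adjusted p = 0.000686). The 7 hemocyte markers summed to 162 to 168 CPM in L854F, 96.4 to 122 CPM in JmjC and 173 to 209 CPM in WT, most of it from Pxn and Col4a1. Both fell in JmjC (-0.53, adjusted p = 0.00327, and -1.55, adjusted p = 2.7e-06), and Col4a1 fell in L854F (-0.54, adjusted p = 0.0235). The other hemocyte markers were not called. In JmjC, Hml (0.26) and eater (0.17) lay above 0, and NimC1 (-0.25) and PPO1 (-0.56) lay below it. The 8 salivary gland markers reached at most 14.8 CPM in L854F, 61.1 CPM in JmjC and 22.8 CPM in WT. Ring gland markers summed to 342 to 393 CPM over all 12 samples. Among male-linked transcripts, the Y-linked FDY averaged 0.668 ± 0.627 CPM in L854F, 17.8 ± 2.47 CPM in JmjC and 5.52 ± 0.977 CPM in WT. FDY fell in L854F (log2 fold change -3.03, adjusted p = 0.0044) and rose in JmjC (1.68, adjusted p = 2.5e-05). The dosage compensation RNA roX2 averaged 19.1 CPM in L854F, 28.0 CPM in JmjC and 17.7 CPM in WT and rose in JmjC (0.66, adjusted p = 0.00421). The more abundant roX1 averaged 780 CPM in L854F, 914 CPM in JmjC and 733 CPM in WT and was not called. The part of these transcripts, and of the muscle and hemocyte markers, in the results below was not tested.

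The precursors differed widely in level. Per kilobase of the deposited gene length, Nplp1 was the most abundant of the 46 genes in WT at 327 ± 14.3 CPM per kb (SD, n = 4). Nplp1 is the precursor of several peptides made by apterous neurons. Below it came Proc (proctolin, a peptide that stimulates muscle contraction) at 259 ± 15.4 CPM per kb, Lk (leucokinin) at 241 ± 15.1 CPM per kb, Capa at 226 ± 19.9 CPM per kb and Orcokinin at 212 ± 5.13 CPM per kb. WT samples of Nplp1 did not overlap those of Proc on this scale, whereas each of Proc, Lk and Capa overlapped its next lower neighbour. Between 51.0 CPM per kb (CCAP) and 100 CPM per kb (Pdf) in WT lay Crz, FMRFa, Gpb5, Nplp4 and AstA, and Dh31 stood at 34.7 CPM per kb. The enzymes lay among the abundant precursors, at 165 CPM per kb for Pal2, 126 for svr, 97.1 for Phm and 66.1 for amon, whereas dimm stood at 1.83 CPM per kb. How the deposited length was defined is not given in the sources used here, which limits comparison between genes.

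**Figure D1:**
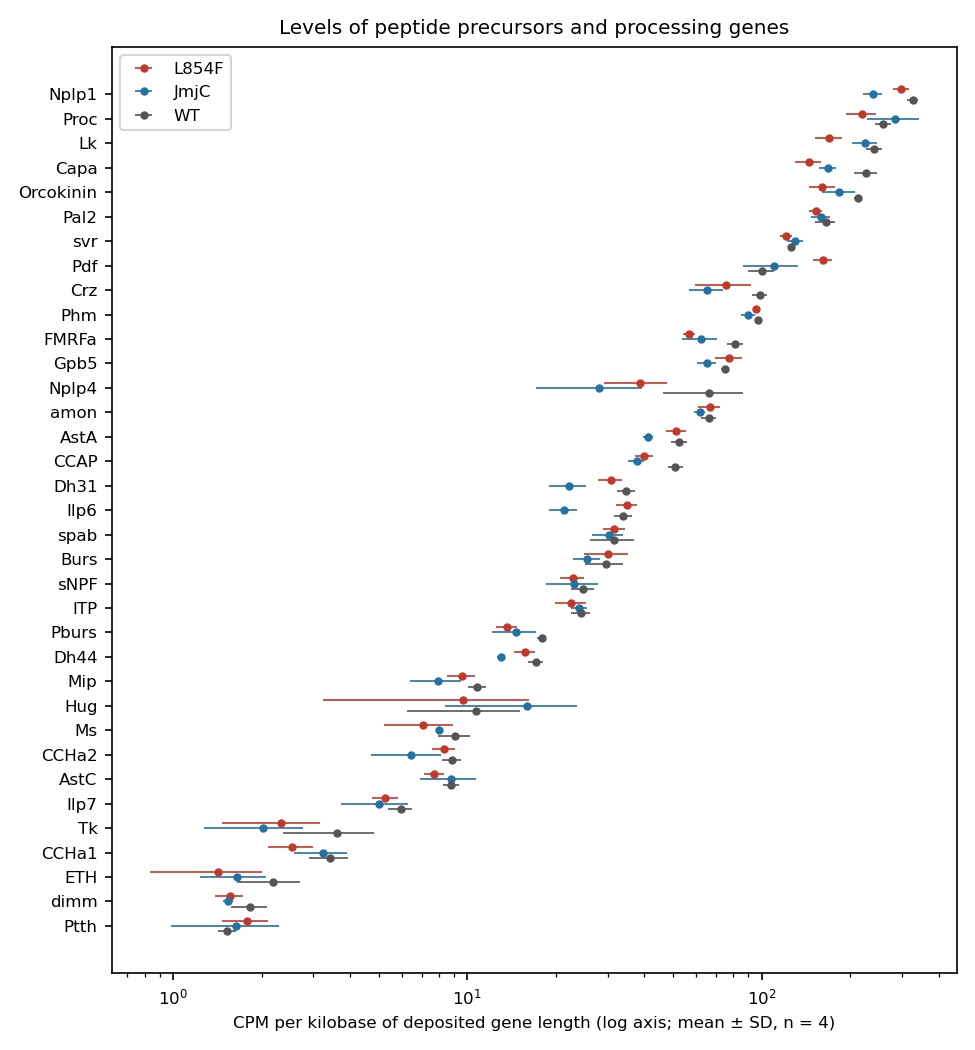
Mean level ± SD (n = 4) of the 35 tested genes, in CPM per kilobase of the deposited gene length on a log axis, ordered by level in WT. Nplp1 is the highest precursor at 327 CPM per kb in WT, and Ptth is the lowest gene shown at 1.53.

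Several peptides whose larval source cells lie in the brain had few or no counts. Ilp2 and Ilp3 (insulin-like peptides of the brain's insulin-producing cells) had at most 5 and 1 counts in any sample. Eh (eclosion hormone) had 3 counts in all, held by JmjC replicate 3, and SIFa had 1 count in all, in L854F replicate 1. Ptth, a hormone of brain neurons that drives ecdysone synthesis, passed the filter and averaged 1.77 ± 0.314 CPM in L854F, 1.63 ± 0.653 CPM in JmjC and 1.53 ± 0.103 CPM in WT. Also too low to test were Dsk, NPF, RYa, CNMa, amn, Nplp2 and Ilp8, none of which exceeded 16 counts in a sample except Ilp8. The filter on low counts thus kept 35 of the 46 genes, the same 35 in each comparison: 30 precursors, the 4 enzymes and dimm.

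In L854F against WT, 5 of the 35 tested genes fell and 1 rose. The genes that fell were Capa, FMRFa, Lk, Orcokinin and CCAP, and the gene that rose was Pdf (pigment-dispersing factor). The 5 lower calls are 14.3% of the genes tested, where 2.49% of all 9105 genes tested were called lower. The single higher call is 2.86%, where 3.04% of all genes were called higher and 5.54% were called in either direction. The median log2 fold change was -0.17 over the 35 genes and 0.00 over all genes tested. Groups did not overlap in 7 of the 35, where 12.7% of all genes had groups that did not overlap. The 6 lower ones compare with 6.04% of all genes and the 1 higher with 6.61%. At an unadjusted p under 0.05 there were 12 of the 35, where all genes gave 19.0%.

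In JmjC against WT, 12 of the 35 fell and none rose. These were CCAP, Mip, Capa, Dh31, Dh44, Gpb5, FMRFa, AstA, Crz, Ilp6, Nplp1 and Nplp4, all of them precursors. They are 34.3% of the genes tested, where 7.67% of all 9244 genes tested were called lower, 9.66% higher and 17.3% in either direction. At an unadjusted p under 0.05 there were 17 of the 35, against 31.0% of all genes. The median log2 fold change was -0.20 over the 35 genes and 0.00 over all genes tested. In 12 of the 35, all 4 JmjC samples lay below the 4 WT samples, where 10.9% of all genes had this arrangement. These were the 12 called genes, so the arrangement is not a separate result.

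Both comparisons use the same 4 WT samples, so the calls they share are not independent. CCAP, Capa and FMRFa fell in both. Lk and Orcokinin fell and Pdf rose in L854F without a call in JmjC, and 9 genes fell in JmjC without a call in L854F. Whether the mutants differ was tested directly, and that value is given for each of these 15 genes below. In a cord, fewer cells making a peptide and less RNA per cell cannot be told apart.

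**Figure D2:**
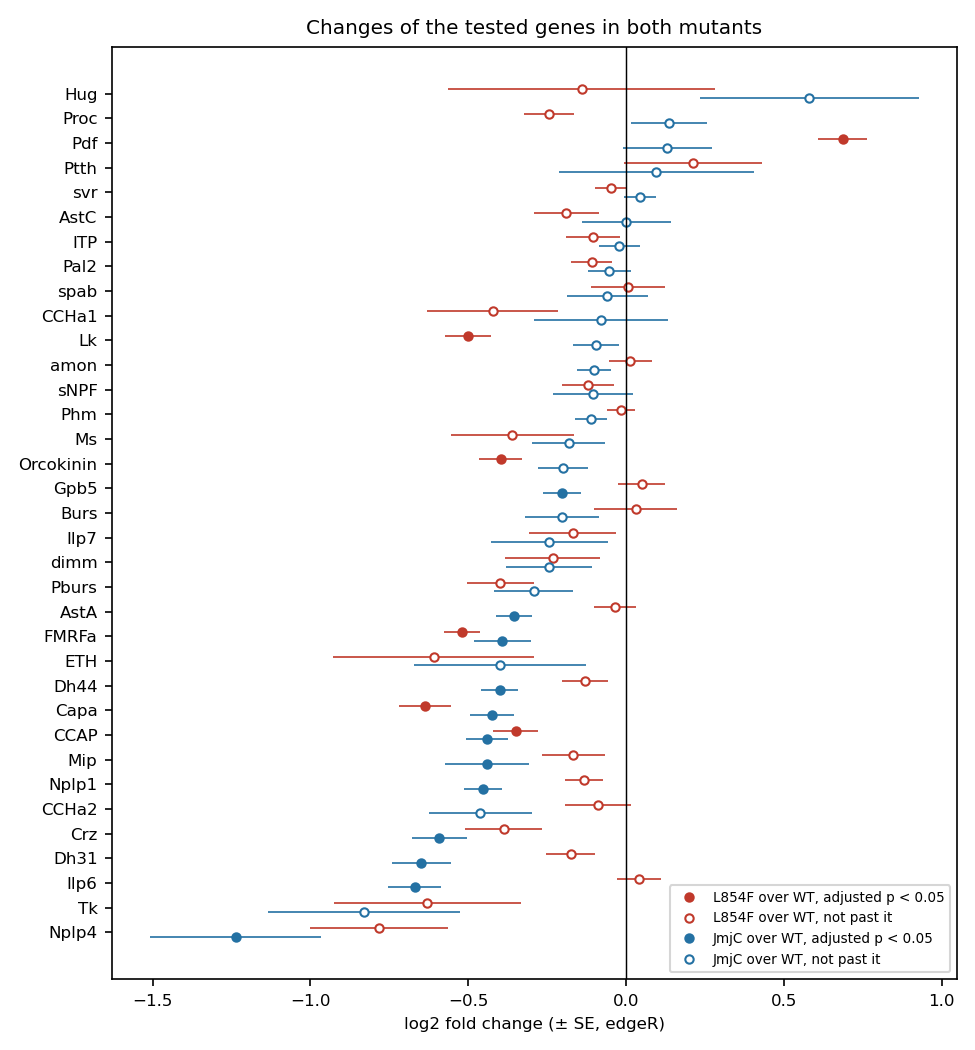
Log2 fold change ± SE of the 35 tested genes in L854F over WT (red) and JmjC over WT (blue), with filled circles for an adjusted p under 0.05 by edgeR's quasi-likelihood test. Filled circles lie left of 0 except Pdf in L854F at 0.69.

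Summed over the 41 precursors, transcripts reached 2068, 2252, 2094 and 2211 CPM in L854F replicates 1 to 4 and 2082, 2189, 1832 and 2378 CPM in JmjC, against 2493, 2548, 2341 and 2547 CPM in WT. All L854F sums lay below the WT sums, while JmjC replicate 4 lay above the lowest WT sum. Without Nplp1 and Proc, which hold about as much as the rest together, the sums were 1066 to 1129 CPM in L854F and 960 to 1177 CPM in JmjC, against 1219 to 1325 CPM in WT, and neither mutant overlapped WT. These sums hold the called precursors other than Nplp1, so this arrangement is not a separate result. Proc, left out here, reached 664 CPM in JmjC replicate 4, against 458 to 518 CPM in WT. The summed enzymes overlapped throughout, at 1080 to 1154 CPM in L854F, 1093 to 1181 CPM in JmjC and 1122 to 1190 CPM in WT.

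**Figure D3:**
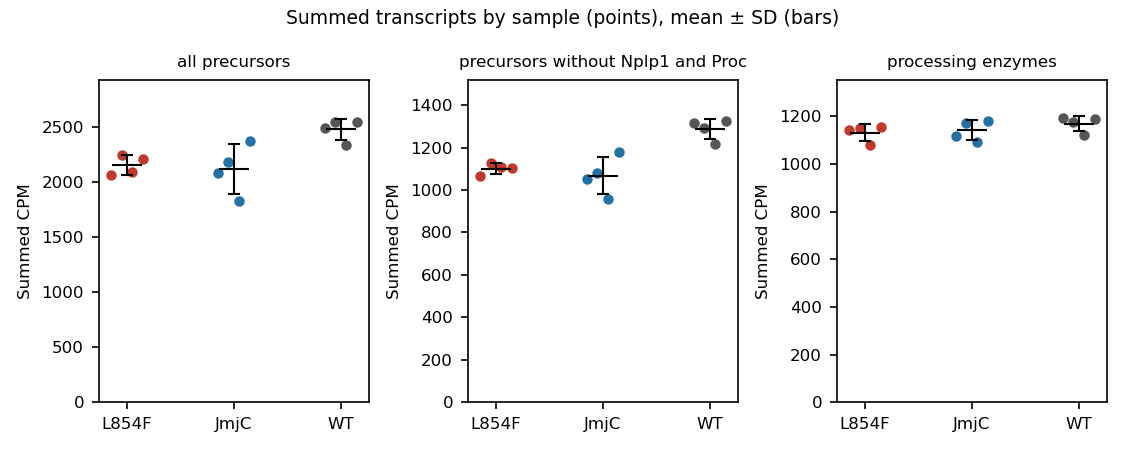
Summed CPM by sample (points) with mean ± SD (bars, n = 4) for all 41 precursors, for the 39 precursors other than Nplp1 and Proc, and for the 4 processing enzymes. Precursor sums average 2156 CPM in L854F, 2120 CPM in JmjC and 2482 CPM in WT, whereas the enzyme sums overlap between the groups.

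Peptides released around ecdysis were examined first. CCAP encodes crustacean cardioactive peptide, which acts in the ecdysis motor programme (FBgn0039007, 3R:22700582-22702084, minus strand, dm6). It had 26.3, 28.5, 31.3 and 28.3 CPM in the L854F samples and 25.6, 26.4, 26.0 and 29.3 CPM in the JmjC samples, against 37.6, 38.7, 33.7 and 35.7 CPM in WT. All 8 mutant samples lay below all 4 WT samples. The log2 fold change was -0.35 in L854F (SE 0.07, adjusted p = 0.0153) and -0.44 in JmjC (SE 0.07, adjusted p = 0.00096). The L854F call was lost without WT replicate 2 (adjusted p = 0.0503) and without L854F replicate 1 (0.0523). The direct comparison of L854F with JmjC gave 0.10 (SE 0.07, adjusted p = 0.394).

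Burs and Pburs encode the subunits of bursicon, the hormone that tans and hardens new cuticle, and part of the CCAP neurons make them. Pburs had 6.49, 7.75, 7.69 and 7.68 CPM in the L854F samples and 7.21, 8.02, 6.77 and 9.86 CPM in the JmjC samples, against 9.76, 10.1, 9.90 and 9.28 CPM in WT. The L854F samples all lay below WT, but the log2 fold change of -0.40 (SE 0.11) had an adjusted p of 0.0557. In JmjC it was -0.29 (SE 0.13, adjusted p = 0.139), and it passed without JmjC replicate 4 (-0.41, adjusted p = 0.0333). Burs overlapped between all groups, with means of 19.3 ± 3.26 CPM in L854F, 16.4 ± 1.73 CPM in JmjC and 18.9 ± 2.83 CPM in WT. The ratio of Burs to Pburs within a library was 2.29 to 3.11 in L854F and 1.73 to 2.43 in JmjC, against 1.67 to 2.24 in WT. The ratio of CCAP to Pburs was 3.67 to 4.08 in L854F and 2.97 to 3.85 in JmjC, against 3.41 to 3.85 in WT. Differences in these ratios were not tested.

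Mip encodes the myoinhibiting peptides, ligands of the sex peptide receptor that are also made by ecdysis neurons. It had 13.4, 13.4, 11.6 and 15.2 CPM in the L854F samples and 10.4, 12.8, 8.29 and 12.8 CPM in the JmjC samples, against 16.6, 14.8, 14.5 and 14.3 CPM in WT. It fell in JmjC (a log2 fold change of -0.44 with SE 0.13, adjusted p = 0.0438) and was not called in L854F (-0.17, SE 0.10, adjusted p = 0.423). L854F over JmjC gave 0.28 (SE 0.14, adjusted p = 0.217). The JmjC call was lost without any of the WT replicates (adjusted p = 0.111, 0.0765, 0.0703 and 0.065 without replicates 1 to 4), without JmjC replicate 1 (0.113) and without JmjC replicate 3 (0.0569). ETH, the ecdysis triggering hormone of the tracheal Inka cells, averaged 1.07 ± 0.439 CPM in L854F, 1.25 ± 0.317 CPM in JmjC and 1.65 ± 0.40 CPM in WT and was not called. The 6 tracheal markers summed to 243 to 306 CPM in L854F, 207 to 273 CPM in JmjC and 280 to 318 CPM in WT, and their part in the ETH values was not tested.

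Among peptides that act on water and ion balance, Capa had the largest fall of the 5 genes that fell in L854F. Its precursor gives the CAPA peptides, which act on the Malpighian tubules (FBgn0039722, 3R:29912991-29914346, minus strand). It had 107, 98.0, 111 and 88.1 CPM in the L854F samples and 117, 115, 109 and 127 CPM in the JmjC samples, against 158, 157, 140 and 174 CPM in WT. No mutant sample reached the lowest WT sample. The log2 fold change was -0.64 in L854F (SE 0.08, adjusted p = 0.00086) and -0.43 in JmjC (SE 0.07, adjusted p = 0.00187). L854F and JmjC were not separated by the unpaired test (-0.21, SE 0.08, adjusted p = 0.0926).

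Leucokinin, encoded by Lk (FBgn0028418, 3L:14560139-14560764, minus strand), stimulates tubule secretion and in the cord comes from abdominal neurons. Lk had 103, 123, 99.4 and 101 CPM in the L854F samples, 146, 138, 124 and 157 CPM in the JmjC samples and 163, 148, 141 and 151 CPM in the WT samples. The L854F samples lay below all others, and the JmjC samples overlapped WT. Its log2 fold change was -0.50 in L854F over WT (SE 0.07, adjusted p = 0.00204), -0.10 in JmjC over WT (SE 0.07, adjusted p = 0.417) and -0.40 in L854F over JmjC (SE 0.09, adjusted p = 0.00907). An antisense gene, asRNA:CR44843, covers 93% of the exonic bases of Lk. It had 13 to 42 counts in L854F, 18 to 24 counts in JmjC and 18 to 35 counts in WT, against 1500 or more counts of Lk in every sample. The kit was stranded, but whether strand was used in counting is not given in the sources used here.

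The diuretic hormone genes Dh31 (related to calcitonin) and Dh44 (related to corticotropin-releasing factor) fell in JmjC and were not called in L854F. Dh31 had 36.5, 40.1, 37.7 and 44.8 CPM in the L854F samples, 27.1, 27.4, 25.4 and 34.7 CPM in the JmjC samples and 47.0, 42.3, 42.3 and 48.2 CPM in the WT samples. JmjC lay below both other groups in every sample. The log2 fold change was -0.65 in JmjC over WT (SE 0.09, adjusted p = 0.000811), -0.18 in L854F over WT (SE 0.08, adjusted p = 0.24) and 0.48 in L854F over JmjC (SE 0.10, adjusted p = 0.00761). Without JmjC replicate 3, the library with midgut transcripts, the JmjC value was -0.60 (adjusted p = 0.00227).

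Dh44 had 35.9, 33.9, 37.5 and 41.2 CPM in the L854F samples, 31.9, 30.9, 30.4 and 29.9 CPM in the JmjC samples and 39.2, 43.5, 41.7 and 38.1 CPM in the WT samples. The JmjC samples were again the lowest throughout. Log2 fold changes were -0.40 in JmjC over WT (SE 0.06, adjusted p = 0.000764), -0.13 in L854F over WT (SE 0.07, adjusted p = 0.386) and 0.28 in L854F over JmjC (SE 0.07, adjusted p = 0.0182). The call between the mutants was lost without JmjC replicate 4 (adjusted p = 0.0519).

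Gpb5 encodes the beta subunit of a glycoprotein hormone related to vertebrate thyrostimulin. It had 45.6, 52.0, 58.9 and 50.4 CPM in the L854F samples, 41.5, 40.0, 45.9 and 46.4 CPM in the JmjC samples and 50.1, 50.3, 48.1 and 51.5 CPM in the WT samples. It fell in JmjC by a small amount (a log2 fold change of -0.20 with SE 0.06, adjusted p = 0.0408) and was not called in L854F (0.05, SE 0.07, adjusted p = 0.794). The difference of L854F over JmjC was 0.26 (SE 0.08, adjusted p = 0.0526), which did not pass. The JmjC call was lost without any of the WT replicates (adjusted p between 0.0524 and 0.0918) and without JmjC replicate 1 (0.121) or 2 (0.111). Its partner subunit Gpa2, outside the 48 genes, averaged 55.3 ± 8.94 CPM in L854F, 31.6 ± 7.81 CPM in JmjC and 52.9 ± 3.51 CPM in WT. Gpa2 fell in JmjC (a log2 fold change of -0.74 with SE 0.14, adjusted p = 0.0035) and was higher in L854F than in JmjC (0.81, SE 0.16, adjusted p = 0.0051). ITP, an antidiuretic ion transport peptide, overlapped between all groups at 66.1 ± 8.20 CPM in L854F, 70.0 ± 4.50 CPM in JmjC and 71.1 ± 5.09 CPM in WT.

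**Figure D4:**
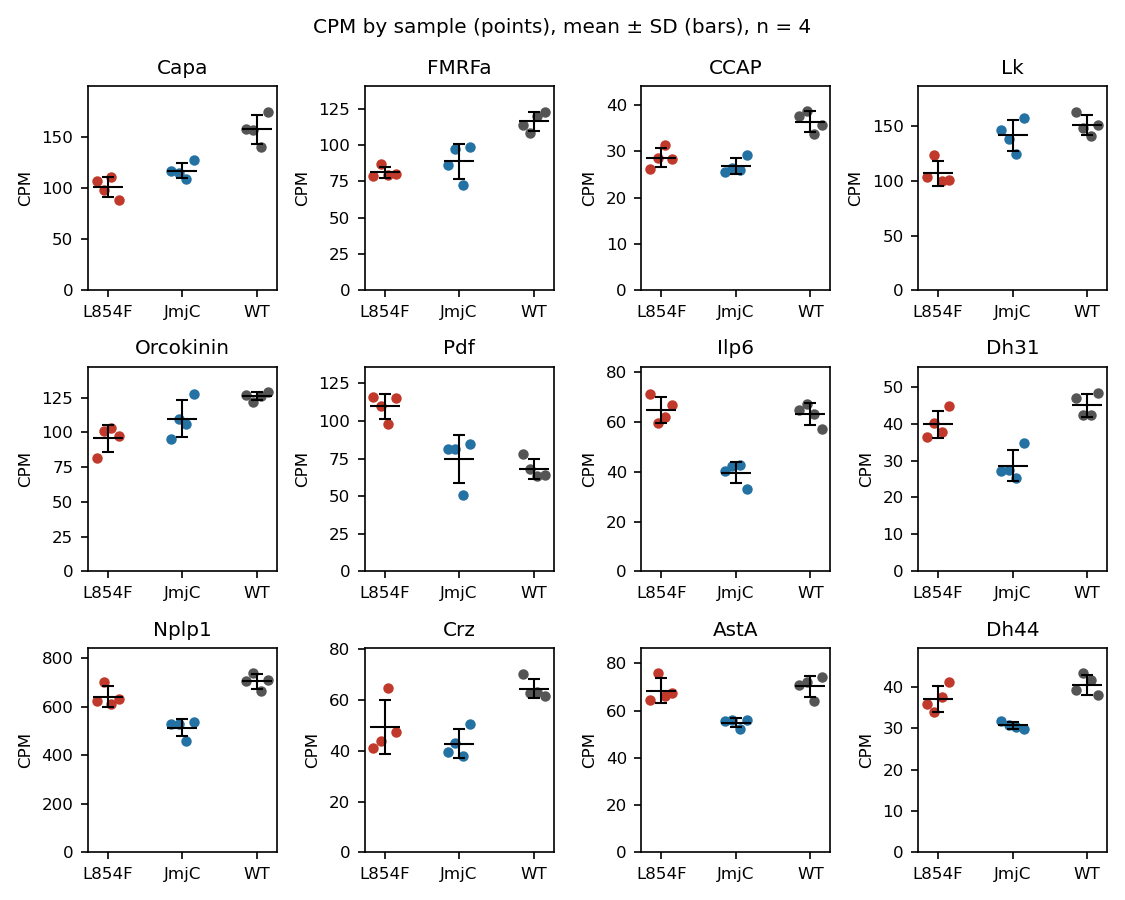
CPM in each of the 4 samples per group (points) with mean ± SD (bars) for 12 precursors called in at least 1 comparison. Capa, FMRFa and CCAP are below WT in every sample of both mutants, Lk and Orcokinin are below WT in every L854F sample, Pdf is above it there, and Ilp6, Dh31, Nplp1, Crz, AstA and Dh44 are below WT in every JmjC sample.

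Among peptides that modulate neurons and muscle, FMRFa fell in both mutants. Its FMRFamide peptides enhance muscle contraction, and thoracic neurons of the cord release them into the circulation. FMRFa (FBgn0000715, 2R:9906294-9910457, plus strand) had 78.4, 86.9, 79.3 and 79.8 CPM in the L854F samples and 86.3, 97.3, 72.5 and 98.6 CPM in the JmjC samples, against 114, 108, 120 and 123 CPM in WT. All mutant samples lay below WT, with a wider spread in JmjC. The log2 fold change was -0.52 in L854F (SE 0.06, adjusted p = 0.000272) and -0.39 in JmjC (SE 0.09, adjusted p = 0.0136). L854F over JmjC gave -0.12 (SE 0.09, adjusted p = 0.39), which passed without JmjC replicate 3 (-0.21, adjusted p = 0.0482).

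Pdf was the only one of the 35 genes called higher in a mutant. PDF is the peptide of the brain's ventral clock neurons, and in the cord it is made by posterior abdominal neurons that innervate the hindgut. Pdf (FBgn0023178, 3R:26455462-26456141, minus strand) had 116, 110, 98.1 and 115 CPM in the L854F samples, 81.7, 81.6, 50.9 and 85.0 CPM in the JmjC samples and 77.9, 68.1, 63.3 and 64.0 CPM in the WT samples. The L854F samples lay above all others. The log2 fold change was 0.69 in L854F over WT (SE 0.08, adjusted p = 0.000308, a ratio of 1.61), 0.13 in JmjC over WT (SE 0.14, adjusted p = 0.564) and 0.56 in L854F over JmjC (SE 0.14, adjusted p = 0.0168). JmjC replicate 3 stood apart from its group, and without it JmjC also exceeded WT (0.28, adjusted p = 0.0268). The summed level of 7 transcription factor genes used as markers of the brain lobes and optic lobes was 163 to 168 CPM in L854F, 150 to 170 CPM in JmjC and 144 to 151 CPM in WT. The largest of them, toy, averaged 80.7 CPM in L854F, 82.7 CPM in JmjC and 77.3 CPM in WT. Next came ey, at 39.3 CPM in L854F, 37.2 CPM in JmjC and 34.4 CPM in WT. Rx averaged 0.528 to 0.768 CPM and Optix 0.257 to 0.529 CPM over the groups. None of the 5 markers tested was called in L854F, and 1 of 6 (oc) rose in JmjC. Whether cord cells also express these genes was not tested. The part of these markers in the Pdf result was not tested.

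Orcokinin had 81.8, 101, 103 and 97.2 CPM in the L854F samples and 95.6, 110, 106 and 128 CPM in the JmjC samples, against 127, 122, 126 and 129 CPM in WT. All L854F samples lay below WT, and in JmjC only replicate 4 reached the WT range. It fell in L854F (a log2 fold change of -0.40 with SE 0.07, adjusted p = 0.00587). In JmjC the value was -0.20 (SE 0.08, adjusted p = 0.107), and it passed without JmjC replicate 4 (-0.28, adjusted p = 0.00815). The difference between the mutants was -0.19 (SE 0.09, adjusted p = 0.197).

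Crz and AstA fell in JmjC. Crz encodes corazonin, a peptide related to vertebrate gonadotropin-releasing hormone. It had 41.1, 44.0, 64.8 and 47.5 CPM in the L854F samples and 39.4, 43.1, 38.0 and 50.7 CPM in the JmjC samples, against 70.2, 62.9, 63.3 and 61.7 CPM in WT. In JmjC its log2 fold change reached -0.59 (SE 0.09, adjusted p = 0.000882). In L854F it was -0.39 (SE 0.12, adjusted p = 0.0946), where replicate 3 lay among the WT samples, and without that replicate it passed (-0.55, adjusted p = 0.00159). The mutants were not separated (0.21, SE 0.14, adjusted p = 0.325).

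AstA encodes the allatostatin A peptides. AstA had 64.5, 76.0, 66.1 and 67.3 CPM in the L854F samples, 55.5, 56.0, 52.0 and 56.2 CPM in the JmjC samples and 70.7, 72.0, 64.1 and 74.0 CPM in the WT samples. JmjC lay below both other groups, which overlapped each other. Its log2 fold change was -0.35 in JmjC over WT (SE 0.06, adjusted p = 0.00155), -0.04 in L854F over WT (SE 0.07, adjusted p = 0.84) and 0.33 in L854F over JmjC (SE 0.06, adjusted p = 0.00527).

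Nplp1, the most abundant precursor, had 622, 704, 612 and 631 CPM in the L854F samples, 529, 531, 460 and 537 CPM in the JmjC samples and 705, 738, 664 and 712 CPM in the WT samples (FBgn0035092, 2R:25032377-25040377, plus strand). The JmjC samples were the lowest throughout. Log2 fold changes were -0.45 in JmjC over WT (SE 0.06, adjusted p = 0.000498), -0.13 in L854F over WT (SE 0.06, adjusted p = 0.258) and 0.33 in L854F over JmjC (SE 0.07, adjusted p = 0.00827). Nplp4 varied more, at 13.2, 18.6, 11.5 and 18.9 CPM in L854F and 6.97, 17.3, 9.51 and 11.5 CPM in JmjC, against 23.8, 28.8, 17.5 and 36.8 CPM in WT. It fell in JmjC (a log2 fold change of -1.24 with SE 0.27, adjusted p = 0.00974, a ratio of 0.424), the largest fall of the 35 genes. In L854F it was -0.78 (SE 0.22, adjusted p = 0.0641) and passed without the filter on low counts (adjusted p = 0.0289), with DESeq2 (0.01) and without WT replicate 3 (0.0195). It also passed in a fit that blocks on the sample number (adjusted p = 0.00121). L854F over JmjC gave 0.46 for Nplp4 (SE 0.25, adjusted p = 0.243).

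The remaining modulators did not pass in any comparison with edgeR's unpaired test on the 8 samples involved. Proc had 380, 420, 375 and 478 CPM in the L854F samples, 499, 575, 413 and 664 CPM in the JmjC samples and 471, 518, 458 and 510 CPM in the WT samples. Its log2 fold change was -0.24 in L854F over WT (SE 0.08, adjusted p = 0.112) and 0.14 in JmjC over WT (SE 0.12, adjusted p = 0.478), and leaving out L854F replicate 4 brought the L854F value past the threshold (-0.32, adjusted p = 0.0239). L854F over JmjC gave -0.37 for Proc (SE 0.13, adjusted p = 0.0728), which passed with DESeq2 (0.0316) and in 1 edgeR fit over all 12 samples (0.0397). Tk (tachykinin) averaged 3.86 ± 1.41 CPM in L854F, 3.36 ± 1.24 CPM in JmjC and 5.99 ± 2.05 CPM in WT. Its log2 fold change of -0.83 in JmjC over WT (SE 0.30) had an adjusted p of 0.0872. In the fit that blocks on the sample number, the adjusted p was 0.00622. CCHa2, a nutrient-responsive peptide, averaged 9.72 ± 0.846 CPM in L854F, 7.5 ± 2.02 CPM in JmjC and 10.3 ± 0.740 CPM in WT. It had a log2 fold change of -0.46 in JmjC over WT (SE 0.16, adjusted p = 0.079), which passed without JmjC replicate 4 (-0.67, adjusted p = 0.00368). AstC, CCHa1, Ms (myosuppressin), sNPF (short neuropeptide F) and spab had log2 fold changes between -0.42 and 0.01 in either mutant and were called in none.

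Hug, which encodes the hugin peptides, varied most within groups of the 35 tested genes. It ran from 3.45 to 19.2 CPM in L854F, from 8.93 to 26.8 CPM in JmjC and from 6.46 to 17.4 CPM in WT. The coefficient of variation was 66.6% in L854F, 47.8% in JmjC and 41.5% in WT, and no unpaired comparison passed.

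The growth hormone Ilp6, an insulin-like peptide made by fat body and by glia of the nervous system, had the fall with the smallest adjusted p in JmjC. Ilp6 (FBgn0044047, X:2331493-2334658, minus strand) had 71.4, 59.7, 62.0 and 66.9 CPM in the L854F samples, 40.5, 42.3, 42.7 and 33.3 CPM in the JmjC samples and 65.0, 67.4, 63.2 and 57.2 CPM in the WT samples. The JmjC samples lay well below all others, and L854F overlapped WT. The log2 fold change was -0.67 in JmjC over WT (SE 0.08, adjusted p = 0.000309), 0.04 in L854F over WT (SE 0.07, adjusted p = 0.823) and 0.72 in L854F over JmjC (SE 0.09, adjusted p = 0.000304). Some markers of the cells that make it were called in JmjC. Of 9 glial markers, 3 fell there (moody, loco and Indy) and 1 rose (alrm). Over all genes tested, 7.67% were called lower and 9.66% higher. The other glial markers, among them repo (0.07, adjusted p = 0.371) and Eaat1 (0.02, adjusted p = 0.851), were not called. The 9 glial markers summed to 1324 to 1604 CPM in L854F, 1807 to 2157 CPM in JmjC and 1508 to 1759 CPM in WT. The higher sum in JmjC came from alrm, an astrocyte gene, which averaged 259 CPM in L854F, 716 CPM in JmjC and 229 CPM in WT. The 7 fat body markers summed to 786 to 1218 CPM in L854F, 1266 to 1530 CPM in JmjC and 990 to 1202 CPM in WT, most of it from apolpp. The higher sum in JmjC came from apolpp, which averaged 894 CPM in L854F, 1317 CPM in JmjC and 1043 CPM in WT. All the other fat body markers averaged lower in JmjC than in WT, none of them called, and the median log2 fold change of the list was -0.61. The part of these markers in the Ilp6 result was not tested.

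Ilp7, made by abdominal neurons of the cord, averaged 5.50 ± 0.561 CPM in L854F, 5.23 ± 1.34 CPM in JmjC and 6.19 ± 0.571 CPM in WT and was not called. Ilp8, a relaxin-like peptide that growing or damaged imaginal discs secrete, did not pass the filter on low counts. Its counts were 0, 0, 7 and 1 in L854F and 0, 4, 0 and 4 in WT, but 3, 8, 71 and 55 in JmjC.

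The processing enzymes and dimm were called in no comparison. For amon the samples were 293, 274, 240 and 258 CPM in L854F, 250, 258, 244 and 232 CPM in JmjC and 274, 261, 244 and 276 CPM in WT. For svr they were 402, 401, 410 and 443 CPM in L854F, 424, 448, 416 and 478 CPM in JmjC and 431, 429, 436 and 417 CPM in WT. The groups overlapped for both genes. Phm had 137, 144, 139 and 145 CPM in the L854F samples, 128, 134, 141 and 125 CPM in the JmjC samples and 141, 138, 146 and 144 CPM in the WT samples. Pal2 had 309, 330, 291 and 309 CPM in the L854F samples, 317, 332, 292 and 346 CPM in the JmjC samples and 343, 346, 296 and 351 CPM in the WT samples. These amidation enzymes overlapped between the groups too.

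The 95% intervals of the log2 fold change limit how far the enzymes could differ. In L854F over WT they ran from -0.13 to 0.16 for amon, -0.16 to 0.06 for svr, -0.11 to 0.08 for Phm and -0.25 to 0.03 for Pal2. In JmjC over WT they ran from -0.22 to 0.02 for amon, -0.07 to 0.16 for svr, -0.22 to -0.002 for Phm and -0.21 to 0.10 for Pal2. Phm had an unadjusted p of 0.047 in JmjC and an adjusted p of 0.155. The dimm transcript had 5.14, 5.82, 4.44 and 5.08 CPM in the L854F samples and 5.38, 4.97, 5.0 and 4.96 CPM in the JmjC samples, against 7.02, 5.19, 6.34 and 5.52 CPM in WT. Its log2 fold change was -0.23 in L854F (SE 0.15, adjusted p = 0.465) and -0.25 in JmjC (SE 0.14, adjusted p = 0.253), with 95% intervals of -0.56 to 0.10 and -0.55 to 0.06. Both intervals hold 0 and also hold the values measured for CCAP.

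**Figure D5:**
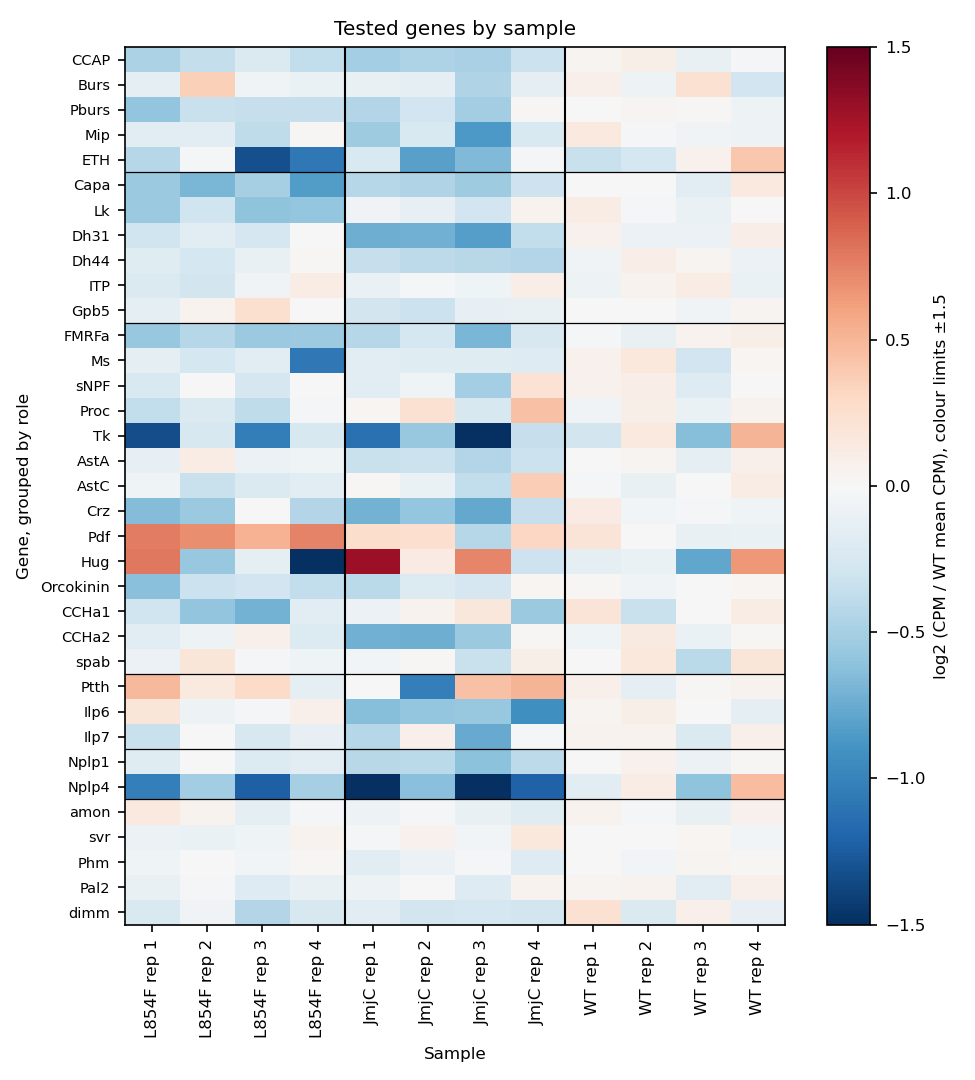
Log2 of CPM over the WT mean for the 35 tested genes (rows, grouped by role) in each sample (columns: L854F, JmjC, WT), with the colour scale limited to 1.5 in either direction. Capa, FMRFa and CCAP are blue in all 8 mutant samples, Pdf is red in all 4 L854F samples, and the enzymes stay pale throughout.

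Compared directly, L854F and JmjC differed in 7 of the 35 genes. AstA, Dh31, Dh44, Ilp6, Nplp1 and Pdf were higher and Lk was lower in L854F. The 6 higher calls are 17.1% of the genes tested and the lower call 2.86%, where 7.20% of all 9207 genes tested were higher in L854F and 8.80% lower (16.0% in all). The median log2 fold change was 0.08 over the 35 genes. The same 7 were the genes whose groups did not overlap, where 20.9% of all genes had such groups. Deviations of same-numbered samples in these groups correlated at 0.103 to 0.172, and those of different number at -0.266 to 0.149. A fit that blocks on the sample number called 11 genes, 8 of them higher and 3 lower. Over all genes the blocked fit called 2038, against 1473 without the block. The block kept all 7 and added Gpb5 (log2 fold change 0.26, adjusted p = 0.0201), Nplp4 (0.49, adjusted p = 0.0379), Proc (-0.36, adjusted p = 0.00492) and Hug (-0.80, adjusted p = 0.0046). Gpb5 and Proc also passed in the fit over all 12 samples (adjusted p = 0.0297 and 0.0397) and with DESeq2 (0.0322 and 0.0316).

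Genes of other steps of the peptide pathway were examined by list. Of 20 genes for dense-core vesicle assembly, transport and release that were found, 1 was called in L854F (nemy, a cytochrome b561 gene, higher by 0.21 on the log2 scale, SE 0.05, adjusted p = 0.0438). In JmjC 1 was called as well, the second peptidyl-lyase gene Pal1 (a log2 fold change of -0.19 with SE 0.05, adjusted p = 0.0346). These single calls stand beside 5.54% of all genes called in L854F and 17.3% in JmjC. The medians of the list were 0.04 in L854F and 0.01 in JmjC. Between the mutants, Sytalpha (0.24, adjusted p = 0.0223) and Arl1 (0.24, adjusted p = 0.0295) were higher in L854F. They were 2 of 20, where 7.20% of all genes were called higher and 16.0% in either direction.

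Of 23 tested genes that specify peptidergic neurons, 1 rose in L854F, and 3 rose and 1 fell in JmjC. Both counts are near the share of all genes called, 5.54% in L854F and 17.3% in JmjC. The BMP receptor gene wit, which motor and FMRFamide neurons need for retrograde signalling, averaged 110 ± 6.52 CPM in L854F and 111 ± 3.73 CPM in JmjC, against 93.5 ± 2.44 CPM in WT. It rose in both (a log2 fold change of 0.24 with SE 0.05, adjusted p = 0.025 in L854F, and 0.25, SE 0.05, adjusted p = 0.00335 in JmjC). In JmjC the cofactor genes eya (0.85, SE 0.16, adjusted p = 0.00395) and nab (0.35, SE 0.07, adjusted p = 0.00569), which act in apterous neurons, rose, and Fer2 fell (-0.18, SE 0.05, adjusted p = 0.0312). Between the mutants, nab (-0.27, adjusted p = 0.0107), cas (-0.30, adjusted p = 0.0171) and eya (-0.64, adjusted p = 0.0337) were lower and Fer2 (0.23, adjusted p = 0.0179) was higher in L854F. These were 3 lower and 1 higher of 23, near the 16.0% of all genes called in that comparison.

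Peptide-degrading enzymes fell where they were called. The angiotensin-converting enzyme homologue Ance averaged 59.9 ± 4.57 CPM in L854F and 59.9 ± 5.12 CPM in JmjC, against 76.0 ± 6.28 CPM in WT. Its log2 fold change was -0.34 in each mutant (SE 0.07 and adjusted p = 0.0202 in L854F, SE 0.08 and adjusted p = 0.0107 in JmjC). Nep2, a neprilysin, averaged 8.98 ± 0.980 CPM in L854F, 5.98 ± 0.923 CPM in JmjC and 11.3 ± 2.36 CPM in WT. It fell in JmjC (-0.92, SE 0.17, adjusted p = 0.00349) and was higher in L854F than in JmjC (0.59, SE 0.14, adjusted p = 0.0164), as was DppIII (0.17, SE 0.05, adjusted p = 0.0478). These were 1 of 6 tested peptidases in L854F and 2 of 6 in JmjC, where 2.49% and 7.67% of all genes were called lower, and so few genes set no share. None of the 12 neuronal markers fell in either mutant, and 4 rose in JmjC (nSyb, Syx1A, Rdl and VAChT), where 9.66% of all genes were called higher.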

How the data were processed

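The authors' deposited gene tables hold RSEM expected counts for L854F with WT and for JmjC with WT, with identical WT columns. The values were already whole numbers. Bowtie2 2.2.5, RSEM 1.2.12, DESeq2 and build dm6 are named in the submitters' processing notes. The annotation used for counting is not given in the sources used here. The authors' deposited comparison tables give gene symbols, length in bases, log2 fold changes and p-values, and of these symbols and lengths were used, and 1 adjusted p is quoted as theirs. Their mean expression signal columns, as deposited, were not used. Gene positions are those of annotation BDGP6.54 (dm6 coordinates), matched by FlyBase identifier for 45 genes.

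For each comparison, edgeR 4.0.16 (R 4.3.3) was run on the 8 samples involved: filterByExpr (minimum count 10, minimum total 15), TMM, quasi-likelihood F-test, and Benjamini-Hochberg adjustment over all genes tested, with a threshold of 0.05. Per-sample CPM use 1 set of TMM factors over all 12 samples. Medians and lists were described without a set test. The fit was tested on simulated data. Alternatives were DESeq2 1.42.0, its size factors, library totals, no filter, 1 fit over 12 samples, a replicate block, and leaving out each sample. Correlations of deviations between same-numbered samples were 0.103 to 0.172 for L854F with JmjC. They were 0.011 to 0.133 for L854F with WT and -0.094 to 0.095 for JmjC with WT. Between samples of different number they ran from -0.266 to 0.149, from -0.162 to 0.038 and from -0.196 to 0.157, in the same order. Some summed levels nevertheless followed the sample number in every group. The muscle markers were highest in replicate 4, at 26.4 CPM in L854F, 16.9 CPM in JmjC and 61.4 CPM in WT. In L854F over WT, the block took the SE of Nplp4 from 0.218 to 0.086 and that of Capa from 0.081 to 0.092. The ranges of the correlations overlap and the labels name no pairs, so the replicate block was kept as an alternative. Whether same-numbered samples were handled together is not known.

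The genes, lists and alternatives were chosen with earlier results of these data known. Genes called in any comparison, the enzymes, dimm and the 5 genes of highest CPM in WT were given in full. From each pathway list, up to 3 called genes with the smallest adjusted p per comparison were named. Other genes were named after their values were seen. Precursor or protein sequences were not used here. Totals of 15103631 to 16850705 counts per sample set the depth, and counts also carry PCR duplication, so counting error is a lower limit.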

Additional observations from a re-analysis of the deposited data

Results flagged for a closer look

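A gap test within each group of 4 samples, applied to 63 groups of CPM values, set 7 values apart. Chance alone sets about 1 in 20 groups apart, but groups drawn from the same libraries are not independent. In JmjC, replicate 3 was the low sample for AstA (52.0 CPM), Nplp1 (460 CPM) and Pdf (50.9 CPM), and replicate 1 was the high sample for dimm (5.38 CPM). In L854F, replicate 2 was the high sample for FMRFa (86.9 CPM) and Lk (123 CPM). In WT, replicate 3 was the low sample for Pal2 (296 CPM). Without JmjC replicate 3, AstA and Nplp1 were still lower in JmjC than in WT (log2 fold change -0.33 and -0.40, adjusted p = 0.00416 and 0.000613).

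The direct test of L854F over JmjC, which is also the test of whether the effects of the mutants against WT differ, passed for 7 genes. The log2 differences were 0.717 for Ilp6 (adjusted p = 0.000304), 0.561 for Pdf (0.0168), 0.479 for Dh31 (0.00761), 0.327 for Nplp1 (0.00827), 0.325 for AstA (0.00527), 0.277 for Dh44 (0.0182) and -0.400 for Lk (0.00907).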

How the results depend on the processing

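The counts of called genes among the 48 stayed within 1.5 times of 6, 12 and 7 under the alternatives, except that the replicate block raised L854F against JmjC to 11 of 35. Leaving out 1 sample gave 5 to 7 called genes in L854F against WT, 10 to 15 in JmjC against WT and 7 to 10 in L854F against JmjC. Over all genes, these ranges were 307 to 426, 1148 to 1698 and 977 to 1725. The lowest came without L854F replicate 1 (307), without JmjC replicate 1 (1148), and without JmjC replicate 1 in L854F against JmjC (977, or 980 without L854F replicate 1). Against WT, the block called 7 genes in L854F and 12 in JmjC. It added Nplp4 in L854F (adjusted p = 0.00121), and in JmjC Tk (0.00622) in place of Gpb5 (0.0528). The fit over all 12 samples also lost Gpb5 in JmjC and added CCHa2, and in L854F against JmjC it added Gpb5 and Proc. Among the genes given in full, signs changed for these values. The dimm transcript in L854F against JmjC was -0.003 with library totals, and ranged from -0.047 to 0.081 when 1 sample was left out. In L854F against WT such ranges were -0.034 to 0.058 for amon, -0.007 to 0.076 for Ilp6 and -0.021 to 0.106 for Gpb5. In L854F against WT, Hug, not called, ran from -0.669 to 0.164. DESeq2 called 8, 13 and 9 of the 48 genes, and over all genes 705, 1843 and 1789, against 504, 1602 and 1473 with edgeR. The 11 genes under the filter on low counts had too few reads for the main test.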

Other observations

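In JmjC and WT, single samples were the extreme of their group for many precursors. JmjC replicate 4 was the highest of its group in 22 of the 30 tested precursors (29.1% of all 9053 genes tested against WT in both mutants had it highest), and JmjC replicate 3 was the lowest in 17 (30.0% of all genes). In WT, replicate 3 was the lowest in 16 of the 30 (25.2% of all genes). In L854F the extremes were more spread, with replicate 1 the lowest in 12 of the 30 (23.4% of all genes) and no sample the highest in more than 9. Replicate 3 also had the lowest summed neuronal markers in every group, at 4901 CPM in L854F, 5034 CPM in JmjC and 4957 CPM in WT. The same held for the summed dense-core vesicle genes, at 7267 CPM in L854F, 7261 CPM in JmjC and 7161 CPM in WT. The part of these libraries in the results was not tested beyond leaving each out.

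Ilp8 was called higher in JmjC than in WT without the filter on low counts (log2 fold change 4.02, adjusted p = 0.02) and with DESeq2 (4.09, adjusted p = 0.0278), and 71 and 55 of its counts in JmjC came from replicates 3 and 4. In the authors' deposited table its adjusted p was 0.0508.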
